A study of Mus musculus with 16 samples.

Results

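Mouse olfactory receptor (OR) genes sit in dense tandem clusters, and the regions described here are the 50 kb windows of the autosomes that hold such clusters. A window was taken when it overlapped 2 or more RefSeq protein-coding genes whose symbol is Olfr followed by a number, with windows starting at multiples of 50 kb on the mm10 coordinates. This gave 359 OR windows of 49224 autosomal windows (0.729%), which cover 17.95 Mb on 15 chromosomes and hold 896 of the 1104 autosomal Olfr genes. Chromosome 2 held 93 of them, chromosome 7 held 74 and chromosome 9 held 45. Of the windows, 197 overlapped 2 Olfr genes, 123 overlapped 3, 32 overlapped 4 and 7 overlapped 5. No other protein-coding gene lay in 321 of the windows, and 38 held at least 1. No measured value entered this rule, though it was set with earlier results of these data known.

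The study tracked the action of the maintenance DNA methyltransferase DNMT1 in E14TG2a mouse embryonic stem cells. The tracked cells were heterozygous for a Dnmt1 knock-in, N1580A, and all cells, wild-type ones included, were electroporated with Ado-6-azide at 1 mM and lysed for genomic DNA 3 h later. This cofactor analog lets the mutant enzyme leave an azide on CpG cytosines, and tethered oligonucleotide-primed sequencing reads out from the tagged site. Each library is a list of CpG positions with a read count, and a position that carries at least 1 read is called listed here.

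The heterozygous knock-in group (Het) had 3 libraries. Knock-in cells on day 0 in the naive state, with the inhibitors CHIR99021 and PD0325901, and on days 2, 4 and 8 after the inhibitors were withdrawn had 2 libraries each. The references were wild-type Dnmt1 cells (WT) with 3 libraries and a wild-type Dnmt1 control with 2. Every knock-in library also carries 1 wild-type Dnmt1 allele. The culture state of the Het group is not in the labels, nor what sets WT and the wild-type control apart, whether the knock-in line is 1 clone or whether replicates are separate cultures, so p-values measure only the spread between these libraries, which may be technical. The 11 knock-in libraries held 4202118 to 25175264 reads at 390158 to 3423423 positions, and the 5 wild-type libraries 1640 to 22890 reads at 960 to 9150 positions. Day 0 libraries were the sparsest of the knock-in libraries.

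OR genes encode the odorant receptors of the nose. Each olfactory sensory neuron expresses a single OR allele, and the other OR genes stay silent in heterochromatin. Class I receptors form 1 block on mouse chromosome 7, while class II receptors are spread over many chromosomes. OR genes are short, with a single coding exon, and lie in AT-rich sequence with few CpGs. DNMT1 copies CpG methylation onto newly made strands after replication, and cells in the naive state with both inhibitors are known to carry less methylation than primed cells.

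The start regions of OR genes show how few CpGs there are for DNMT1 to act on. RefSeq promoters (GRCm38.p6, 250 bases before to 50 after the start) were available for 752 of the Olfr genes in OR windows. They held 1.22 CpGs on average (median 1), and 256 of them held none, whereas 15199 promoters of other autosomal protein-coding genes held 16.7 on average (median 15). The start is that of the gene annotation, and the median Olfr gene of OR windows was 948 bases long. In Olfr73, Olfr17, Olfr462 and Olfr281 below, the last 50 bases begin with the start codon ATG. Where an annotation begins at the start codon, the region need not be the promoter in use, and comparisons with other genes do not allow for this. The 6 promoters below are shown 5′ to 3′ with each CpG in capitals: 3 of well-known receptors, the 2 OR promoters listed most often over the knock-in libraries (chosen after their values were seen), and the CpG-rich promoter of Lhx2, the homeodomain factor that binds OR enhancers.
Olfr160 (chr9:37712231-37712530, minus strand, 0 CpGs): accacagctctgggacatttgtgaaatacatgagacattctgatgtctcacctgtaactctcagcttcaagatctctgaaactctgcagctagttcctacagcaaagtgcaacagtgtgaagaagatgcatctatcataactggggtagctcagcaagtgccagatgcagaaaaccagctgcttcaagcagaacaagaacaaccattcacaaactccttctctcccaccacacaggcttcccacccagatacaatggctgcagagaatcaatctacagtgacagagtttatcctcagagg
Olfr73 (chr2:88035088-88035387, minus strand, 1 CpG): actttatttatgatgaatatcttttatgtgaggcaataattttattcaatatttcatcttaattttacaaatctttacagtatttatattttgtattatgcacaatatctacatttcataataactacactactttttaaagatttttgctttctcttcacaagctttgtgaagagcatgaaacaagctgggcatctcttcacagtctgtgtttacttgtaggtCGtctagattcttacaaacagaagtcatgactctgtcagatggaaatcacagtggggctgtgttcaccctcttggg
Olfr17 (chr7:107097217-107097516, plus strand, 1 CpG): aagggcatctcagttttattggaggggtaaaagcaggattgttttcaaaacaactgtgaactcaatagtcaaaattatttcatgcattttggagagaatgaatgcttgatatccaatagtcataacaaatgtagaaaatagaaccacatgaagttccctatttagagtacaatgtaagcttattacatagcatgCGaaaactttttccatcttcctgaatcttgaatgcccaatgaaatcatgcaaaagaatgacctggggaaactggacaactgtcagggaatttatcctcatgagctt
Olfr462 (chr11:87889845-87890144, minus strand, 6 CpGs): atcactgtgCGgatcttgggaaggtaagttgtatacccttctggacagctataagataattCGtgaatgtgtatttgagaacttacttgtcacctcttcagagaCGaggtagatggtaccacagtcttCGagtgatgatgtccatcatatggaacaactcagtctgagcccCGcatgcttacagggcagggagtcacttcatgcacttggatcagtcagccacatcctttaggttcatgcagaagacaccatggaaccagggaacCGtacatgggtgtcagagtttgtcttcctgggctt
Olfr281 (chr15:98456062-98456361, plus strand, 6 CpGs): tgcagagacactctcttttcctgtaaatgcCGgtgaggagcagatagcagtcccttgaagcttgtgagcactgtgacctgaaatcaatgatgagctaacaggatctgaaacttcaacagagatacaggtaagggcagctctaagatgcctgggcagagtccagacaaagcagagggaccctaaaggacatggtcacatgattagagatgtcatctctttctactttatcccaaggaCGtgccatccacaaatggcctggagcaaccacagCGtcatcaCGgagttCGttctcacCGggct
Lhx2 (chr2:38339031-38339330, plus strand, 34 CpGs): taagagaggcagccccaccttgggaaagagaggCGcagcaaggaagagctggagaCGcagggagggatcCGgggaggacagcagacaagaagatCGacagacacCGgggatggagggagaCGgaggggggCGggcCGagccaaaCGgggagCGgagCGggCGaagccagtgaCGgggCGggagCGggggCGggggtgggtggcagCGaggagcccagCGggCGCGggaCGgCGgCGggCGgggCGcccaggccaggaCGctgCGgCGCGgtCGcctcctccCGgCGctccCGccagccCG
Of the 34 CpGs of the Lhx2 promoter, 1 was listed, in 1 of the 11 knock-in libraries. All 6 CpGs of Olfr462 were listed, with 17 listings summed over CpGs and knock-in libraries, and all 6 of Olfr281, with 16 listings. The CpG of Olfr17 was listed in 1 library and that of Olfr73 in none.

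OR windows carried about 0.5 times the listed positions per Mb of the rest of the autosomes in every knock-in library. In Het libraries, OR windows held 345.6, 703.4 and 530.0 listed positions per Mb, against 657.6, 1371 and 1058 in the other 48865 autosomal windows. On day 0 the OR windows held 74.7 and 82.9 positions per Mb, against 156.3 and 163.1 elsewhere. Day 2 gave 253.4 and 257.9 in OR windows, against 507.9 and 524.5 elsewhere. Day 4 gave 435.3 and 527.2, against 838.7 and 1032, and day 8 gave 634.5 and 550.9, against 1228 and 1042. The density of OR windows was below that of the rest in 11 of 11 libraries, at 0.478 to 0.529 of it, and the geometric mean ratio was 0.508 (SD of log2 ratio 0.0433, n = 11). A two-sided exact sign-flip permutation test over libraries gave p = 0.000977, the smallest value 11 libraries allow. The libraries share 1 genome, so this p covers variation between libraries and not between regions.

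Per Mb, listed positions were nevertheless denser in OR windows than in vomeronasal receptor windows or in windows far from protein-coding genes. Against 84 windows with 2 or more vomeronasal receptor genes (Vmn1r and Vmn2r, which encode pheromone receptors in similar clusters), OR windows were 1.57-fold denser (1.39 to 1.67, exact sign-flip permutation p = 0.000977). Against 4563 gene desert windows, with no protein-coding gene within 500 kb, they were 1.64-fold denser (1.57 to 1.73, exact p = 0.000977). Of these sets, 11 vomeronasal and 775 desert windows had no position in any knock-in library and can include unsequenced or unmappable stretches, while every OR window had at least 1. Without such windows the ratio was 1.37 over vomeronasal windows and 1.36 over deserts. Against 7600 other windows that hold 2 or more protein-coding genes, OR windows stood at 0.346. In the plot of density ratios by library, all points over deserts and vomeronasal windows lie above 1, and all points over the rest and over other windows with several genes lie below it.

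**Figure D1:**
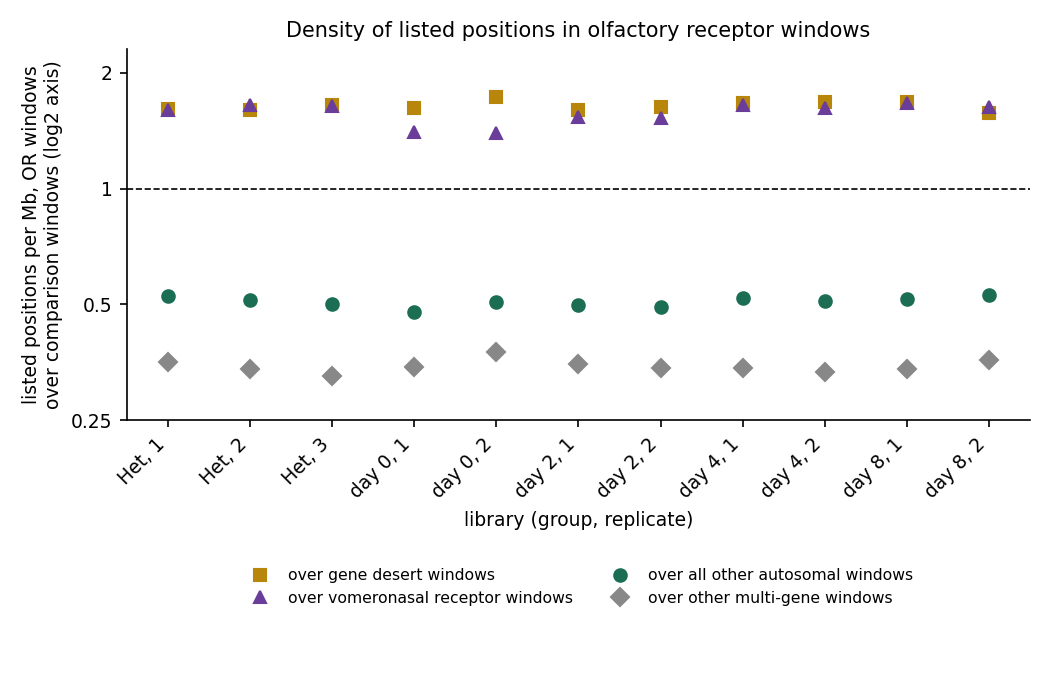
Listed positions per Mb in OR windows divided by the same in 4 sets of comparison windows (log2 vertical axis), 1 point per knock-in library and set; the dashed line marks equal density. Ratios over deserts lie between 1.57 and 1.73 and over vomeronasal windows between 1.39 and 1.67, while those over all other autosomal windows lie between 0.478 and 0.529.

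The windows also differed in how many distinct positions were listed over all libraries. Pooled over the 11 knock-in libraries, OR windows held 2651 distinct listed positions per Mb, against 4714 in the rest. The median distance between neighbouring listed positions was 164 bases in OR windows and 91 bases elsewhere. Per position listed in any knock-in library, the ratio of OR windows to the rest was 0.903 (exact sign-flip permutation p = 0.000977). On the same scale OR windows stood at 1.10 of deserts (exact p = 0.000977) and at 0.994 of vomeronasal windows (exact p = 0.757), where the difference seen per Mb over vomeronasal windows did not pass. The pooled positions come from the same libraries, and a count of CpGs in the genome sequence was not used here. Listed positions in OR windows also held slightly fewer reads each, 8.38 ± 2.04 in OR windows and 9.11 ± 2.27 elsewhere in Het libraries (SD, n = 3), and 3.88 ± 0.0270 and 4.08 ± 0.0460 on day 8 (SD, n = 2). The ratio of reads per position was 0.930 (0.886 to 0.953, below 1 in 11 of 11 libraries, exact p = 0.000977).

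The OR windows differed widely among themselves. Summed over the Het libraries, a window held 24 to 440 positions with a median of 67 and quartiles of 51 and 87, against a median of 137 in the other windows with a position. Of the OR windows, 27 (7.52%) lay above that median of the rest, and against them stood 41 of the 3788 desert windows with a position (1.08%). The highest was chr11:87850001-87900000, with Olfr462 and Olfr463 beside Epx (eosinophil peroxidase) and Mks1 (a ciliary transition zone protein). It held 85, 194 and 161 positions in the Het libraries. Next came chr15:98450001-98500000 (Olfr281, Olfr279 and Lalba, the milk protein alpha-lactalbumin) with 83, 173 and 142, and chr15:98200001-98250000 (Olfr287 and Olfr286) with 61, 125 and 125. These windows include those of the Olfr462 and Olfr281 promoters printed above.

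The emptiest windows lay in the large chromosome 2 clusters. Window chr2:88700001-88750000 (Olfr1196, Olfr1197 and Olfr1198) held 9, 12 and 3 positions in the Het libraries. Window chr2:111250001-111300000 (Olfr1276, Olfr1277 and Olfr1278) held 2, 18 and 6, and chr2:87800001-87850000 (Olfr1143, Olfr1145 and Olfr1148) held 4, 20 and 3. The 7 windows with 5 Olfr genes summed to between 46 and 104 positions, with a median of 71, close to that of all OR windows.

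Windows that also held another protein-coding gene were the denser ones. The 38 OR windows with another protein-coding gene stood at 0.938 ± 0.0641 of the rest of the autosomes, whereas the 321 without one stood at 0.457 ± 0.0143 (SD over 11 knock-in libraries). The ratio between these 2 sets was 2.05 and above 1 in 11 of 11 libraries. By the number of Olfr genes, density relative to the rest was 0.554 with 2 genes, 0.463 with 3, 0.412 with 4 and 0.462 with 5. The 217 windows with exactly 1 Olfr gene, which are not members, stood at 0.594. Across the 359 windows, Spearman's rho of the Het sum was 0.31 with the number of other protein-coding genes and -0.11 with the number of Olfr genes. These correlations are descriptions across windows of the same libraries.

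The chromosome 7 cluster that holds the class I genes lay close to the other OR windows. Its 39 windows stood at 0.512 ± 0.0490 of the rest of the autosomes, and the 320 OR windows outside it at 0.508 ± 0.0135 (SD, n = 11 libraries). The ratio between them averaged 1.01 ± 0.0901 and was above 1 in 8 of 11 libraries, with 2 of the exceptions on day 0 and 1 on day 4. Between windows with no other protein-coding gene the ratio averaged 0.980 ± 0.107 and was also above 1 in 8 libraries. This split was chosen after the data were seen, since a split by symbol, which took as class I the 33 windows with Olfr543 to Olfr692 alone, left out 6 windows of the same cluster that hold a gene of another number. The split by symbol gave 0.523 ± 0.0486 for the 33 windows and 0.507 ± 0.0135 for the other 326.

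At the borders of the clusters the density was already lower. OR windows no more than 500 kb apart were joined into 36 clusters, of which 13 hold 8 or more windows and together 282 of the 359. Over the 26 borders of these 13 clusters, the windows from the second to the tenth outside stood at 0.912 to 1.03 of the rest of the autosomes in Het libraries. The first window outside, which can hold a single Olfr gene, stood at 0.739 ± 0.0180 and the first inside at 0.539 ± 0.0124 (SD, n = 3). At the fifth window inside, the Het value was 0.465 ± 0.0391. Beyond the first window inside, 16 of the 26 windows at each step are OR windows. On day 8 the first window outside stood at 0.759 and the first inside at 0.559, and on day 0 they stood at 0.846 and 0.492.

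**Figure D2:**
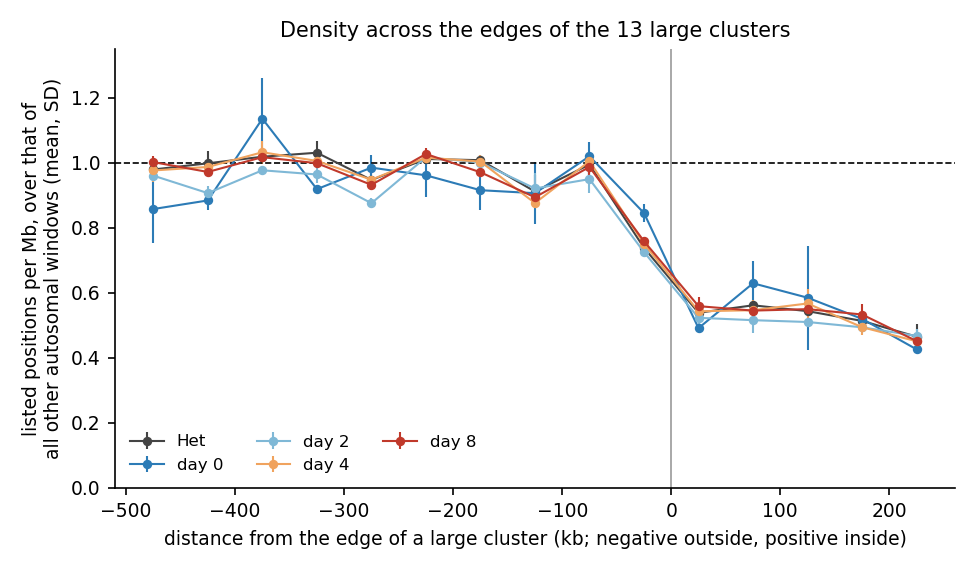
Listed positions per Mb in successive 50 kb windows outside (negative) and inside (positive) the borders of the 13 large OR clusters, divided by the mean of all non-OR autosomal windows; points are group means over libraries and bars are SD. Beyond the first window outside, group means lie between 0.858 and 1.14, and in the fifth window inside between 0.426 and 0.468.

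All 13 large clusters lay below 0.8 of the rest in each of the 11 knock-in libraries, but they were not equal. The largest, on chromosome 2 from Olfr988 to Olfr1272 (chr2:85350001-90300000, 75 windows, 199 Olfr genes), was the lowest in Het libraries at 0.335 ± 0.0171 (SD, n = 3). The second chromosome 2 cluster, from Olfr1276 to Olfr1317, stood at 0.367 ± 0.0741. At the upper end were the chromosome 7 cluster from Olfr543 to Olfr691, which holds the class I genes (chr7:102450001-105350000, 39 windows), at 0.537 ± 0.0134, and the chromosome 7 cluster from Olfr467 to Olfr519 at 0.514 ± 0.0274. The other 9 large clusters lay between 0.416 and 0.497, and neighbours in the order of the 13 Het means differed by less than the larger of their SDs. Spearman's rho of the 13 cluster means was 0.863 between Het and day 8 and 0.412 between Het and day 0. The chromosome 7 cluster from Olfr467 to Olfr519 stood at 0.484 on day 8 and 0.669 on day 0, and the chromosome 17 cluster from Olfr90 to Olfr136 at 0.520 on day 8 and 0.658 on day 0. The class I cluster ran the other way, at 0.546 on day 8 and 0.420 on day 0. These cluster differences between days were not tested.

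**Figure D3:**
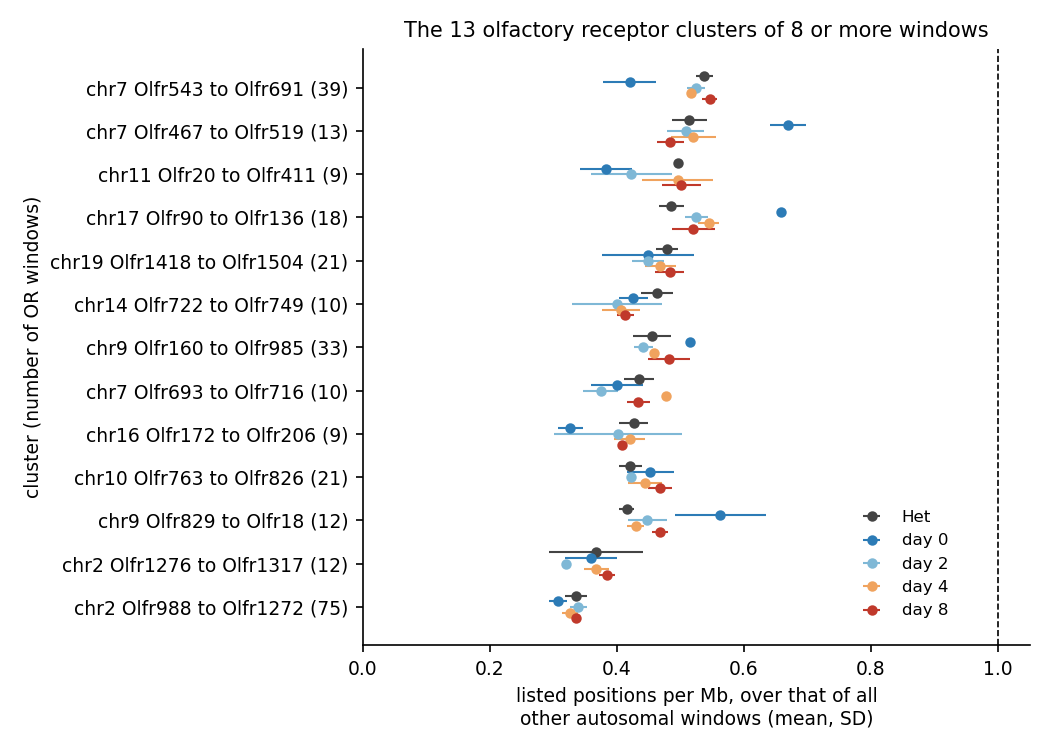
Density of listed positions in each of the 13 OR clusters of 8 or more windows, divided by that of all other autosomal windows; points are group means and bars are SD over libraries (3 for Het, 2 for each day), with clusters named by their first and last Olfr gene. Means lie between 0.307 and 0.669, and in Het libraries the chromosome 2 clusters are lowest.

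A few small clusters were denser than the rest of the autosomes in Het libraries. In 5 clusters with 10 windows in all, every Het library exceeded the rest. They included the single window of Olfr462 and Olfr463 on chromosome 11 at 2.82 ± 0.229, the chromosome 15 cluster of Olfr287 to Olfr279 at 2.08 ± 0.148, and the single window of Olfr222 and Olfr223 on chromosome 11 at 1.78 ± 0.130 (SD, n = 3). The chromosome 4 cluster of Olfr70 to Olfr157 stood at 1.49 ± 0.114 and that of Olfr1416 to Olfr12 on chromosome 1 at 1.10 ± 0.0337. The chromosome 1 cluster lay below the rest on day 0, at 0.853 and 0.695, while the others of the 5 exceeded the rest in every knock-in library.

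Within OR windows, the receptor genes themselves were the denser part. Olfr gene bodies made up 9.09% of the bases of OR windows and held 11.3% to 15.4% of their listed positions. Density in the bodies was 1.66 ± 0.170 times that of the sequence between them (SD, n = 11) and above 1 in 11 of 11 libraries, with the lowest values, 1.41 and 1.27, on day 0. A typical Olfr gene of 948 bases gave few positions. Over the Het libraries 767 of the 896 genes had at least 1 position, with a median of 3, and over all knock-in libraries 860 did. The genes with the largest Het sums were long annotations, Olfr1393 with 131 positions over 28487 bases and Olfr287 with 114 over 18746 bases.

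Single receptors with a known ligand or history show how thin the data are per gene. Olfr73, a receptor for eugenol, had 1, 1 and 0 positions in the Het libraries, and Olfr160, used in many targeting studies, had 0, 1 and 0. Olfr17, a classical model for axon guidance of sensory neurons, had 1, 3 and 0, and Olfr2, a receptor for octanal, had 3, 5 and 4. Olfr1507 had 2, 10 and 6, and Olfr1019 had 1, 4 and 2. Olfr78, a receptor for short-chain fatty acids that is also used outside the nose, had 7, 21 and 15 positions over its 18751 bases. Olfr544, a receptor for azelaic acid, had 6, 11 and 13 over 4194 bases, and Olfr558 had 2, 13 and 9 over 9732 bases. Olfr16 lies outside the OR windows and had 1, 2 and 1.

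The few CpGs that OR promoters have were listed far more often than those of CpG-rich promoters. In Het libraries 6.64%, 14.6% and 10.1% of the 919 CpGs in OR promoters were listed. The matching values were 0.161%, 0.337% and 0.278% in promoters of other genes with more than 15 CpGs. On day 0, 2.18% and 1.74% of OR promoter CpGs were listed, with exact 95% Clopper-Pearson intervals of 1.33% to 3.34% and 0.998% to 2.81%. On day 8 the values were 12.4% and 14.9%, with intervals of 10.3% to 14.7% and 12.7% to 17.4%. OR promoter CpGs were listed 16.9 to 72.1 times as often as those of CpG-rich promoters over the 11 knock-in libraries. The OR regions can lie around the start codon, as said above, and the other promoters were not matched for this.

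Promoters of other genes with few CpGs gave values in the same range, while those of vomeronasal receptor genes were lower. In those with 1 to 6 CpGs, a range chosen after the values were seen, 8.06%, 16.8% and 12.8% of CpGs were listed in Het libraries, and the ratio of OR promoters to them averaged 0.923 ± 0.225 (SD, n = 11), below 1 in 8 libraries and above 1 in 3. Vomeronasal receptor promoters, which also hold few CpGs (1.43 on average), gave 4.16%, 7.88% and 3.72% in Het libraries. Of the 496 OR promoters with a CpG, 311 had 1 listed in some knock-in library. Of the 5 wild-type libraries, 4 listed 0 of the 919 OR promoter CpGs, which allows a share of up to 0.326% by the limit of 3 counts and 0.401% by the exact 95% interval, and wild-type control replicate 2 listed 1 (0.109%). These shares rise with library depth, so they are compared within a library, and intervals cover counting error only.

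**Figure D4:**
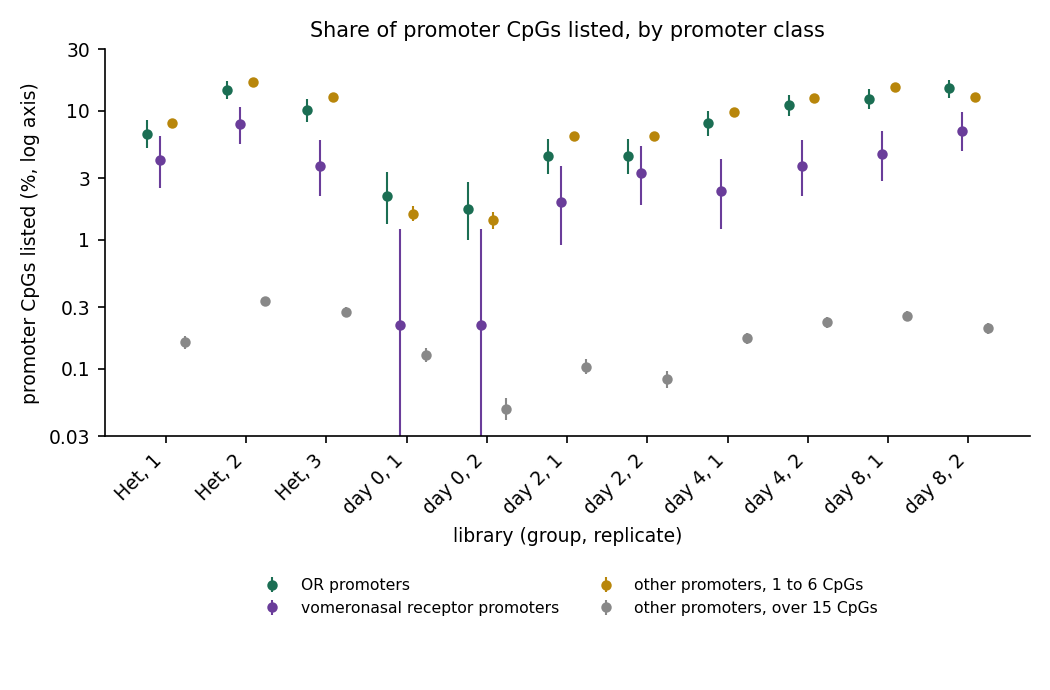
Percent of promoter CpGs listed in each knock-in library (log axis) for promoters of Olfr genes in OR windows, vomeronasal receptor genes, other genes with 1 to 6 CpGs and other genes with over 15 CpGs; bars are exact 95% binomial intervals. OR promoters lie near the other promoters with 1 to 6 CpGs, above the vomeronasal ones and 16.9 to 72.1 times above the CpG-rich ones.

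Motifs of 2 kinds of factor that act on OR genes were looked up in the same promoters as a description. The letters TAATTA, bound by homeodomain proteins such as Lhx2 and Emx2, occurred on either strand in 17.8% of OR promoters, 10.9% of vomeronasal receptor promoters and 3.70% of other promoters. Among other promoters with 1 to 6 CpGs it occurred in 7.28%. An Ebf motif, the letters TCCC and GGGA with any 2 bases between them, occurred in 0.665% of OR promoters, 0% of vomeronasal receptor promoters and 0.993% of other promoters (0.867% of those with 1 to 6 CpGs). Both motifs read the same on both strands, neither contains the other, and the 6 promoters printed above hold neither. For OR genes the sequence searched can lie around the start codon and not at the promoter in use, so these shares can compare unlike places.

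Listed positions in OR windows recurred less between libraries of a group than those elsewhere. Of the OR positions of Het library 1, 20.8% were also listed in Het library 2, against 24.9% of its positions elsewhere. On day 8, 15.4% of the OR positions of library 1 recurred in library 2, against 18.5% elsewhere, and on day 4 it was 15.2%, against 18.9%. Over ordered pairs of libraries of Het and of days 2, 4 and 8 the OR share was 0.806 to 0.904 of that elsewhere, and on day 0 it was 1.02 and 0.958 of it. Of the 47579 OR positions listed in any knock-in library, 56.0% came from 1 library alone, against 48.8% of the 11516723 positions elsewhere.

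Just 4 OR positions were listed in 9 or more of the 11 knock-in libraries (0.00841% of OR positions, against 0.00770% elsewhere). Position chr11:73946586 was listed in all 11, with 8, 6 and 3 reads in Het libraries, 5 and 3 on day 0, 6 and 4 on day 2, 3 and 3 on day 4, and 4 and 4 on day 8. Position chr11:73946547 in the same window was listed in 9, and both lie over 5 kb from the nearest receptor gene, Olfr23 (5361 and 5322 bases). The others were chr10:79003746, listed in 10 libraries and 13578 bases from Olfr1351, and chr19:13144905, listed in 9 and 829 bases from Olfr1459. None of the 4 lies in an annotated protein-coding gene, and they were chosen for this recurrence.

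The wild-type libraries give the background of the assay in these windows. Het libraries listed 6203, 12626 and 9513 positions in OR windows, against 10, 2 and 13 in WT libraries. As a share of all autosomal positions this was 0.376% ± 0.00905 in Het and 0.236% ± 0.0248 in WT (SD, n = 3 each), a difference of 0.140 percentage points with the Het libraries above all WT libraries. By the exact permutation test (two-sided) p was 0.1, the smallest value 3 against 3 allow. The WT shares rest on very few positions, and their exact 95% intervals span 0.125% to 0.480%, 0.0256% to 0.762% and 0.125% to 0.400%. The wild-type control libraries held 25 and 13 OR positions, or 0.277% and 0.378%. The 8 day libraries averaged 0.371%, against 0.328% in the control, a difference that did not pass the exact permutation test (p = 0.156, smallest possible 0.0222). Without wild-type control replicate 1 the difference was -0.00765 points, and in shares of reads it was -0.0151 points. Of the 63 distinct OR positions in wild-type libraries, 44 (69.8%) were also listed in a knock-in library. The matching share of wild-type positions elsewhere was not taken, so this overlap shows nothing particular to OR windows. Per Mb, OR windows stood at 0.356, 0.289 and 0.319 of the rest in WT libraries and at 0.378 and 0.517 in the wild-type control. The lower density of OR windows was thus also seen without the knock-in allele, though from few positions.

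Over the days of priming the OR windows took a slightly larger share of all autosomal listed positions, though not against every set of comparison windows. The share was 0.350% and 0.372% on day 0, 0.365% and 0.360% on day 2, 0.380% and 0.374% on day 4, and 0.378% and 0.387% on day 8. The day 0 libraries overlapped those of day 2 and the lower one was the lowest of all 8, while every day 4 and day 8 library exceeded both day 2 libraries. Over 8 libraries the share correlated with the day with Pearson r = 0.777 (exact permutation p = 0.0226, or 0.0339 when adjusted over 3 relations). Spearman's rho was 0.830, with an exact p of 0.0198 and an adjusted one of 0.0298. Without both day 8 libraries, the farthest from the median day, r was 0.657 (exact p = 0.156), and without both day 0 libraries it was 0.841 (exact p = 0.0556).

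The share of reads gave a steadier relation with the day. It was 0.317% and 0.330% on day 0, 0.346% and 0.339% on day 2, 0.355% in both day 4 libraries, and 0.358% and 0.369% on day 8. Pearson r was 0.897, with an exact permutation p of 0.00238 (0.00714 adjusted). Spearman's rho reached 0.976, with an exact p of 0.000794 (0.00238 adjusted). Without the day 8 libraries r was 0.945, and without the day 0 libraries 0.878 (exact p = 0.0222 for both). The ratio of reads per position between OR windows and the rest, the remaining relation of the 3, had an r of 0.715, with an exact p of 0.0433 before and after adjustment. Its rho of 0.732 had an exact p of 0.0548, which adjustment left as it was, and r was 0.801 without day 8 and 0.426 without day 0 (exact p = 0.0889 and 0.411). Depth moved with the day: day 0 libraries held 4202118 and 4875459 reads, day 2 held 10050478 and 8927149, day 4 held 12011825 and 11966027, and day 8 held 12598003 and 10531495. At an equal number of reads per library, r for the share of positions was 0.688 (exact p = 0.0587), and for windows with 1 or more Olfr genes it was 0.281 (exact p = 0.492). Without day 0 replicate 1, r was 0.730 (exact p = 0.0587), and without day 8 replicate 2 it was 0.675 (exact p = 0.0921).

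**Figure D5:**
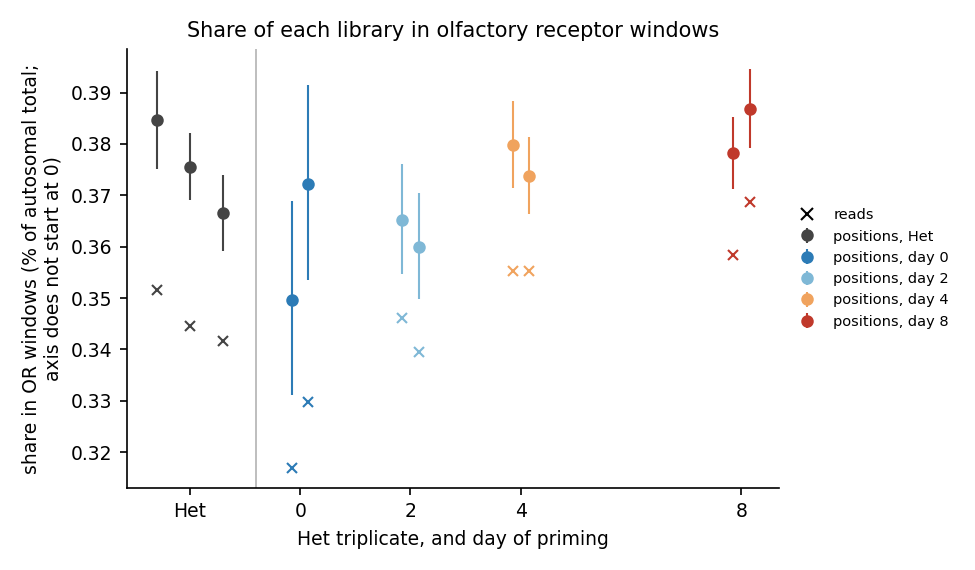
Percent of autosomal listed positions (circles, with exact 95% binomial intervals) and of autosomal reads (crosses) that fall in OR windows, for each Het library on the left and each day library at its day of priming; the vertical axis does not start at 0. Position shares run from 0.350% in a day 0 library to 0.387% in a day 8 library, and read shares from 0.317% to 0.369%.

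Few single OR windows changed between day 8 and day 0, and their number was close to the background. The edgeR quasi-likelihood test on distinct positions, fitted over all windows of the 8 day libraries with Benjamini-Hochberg adjustment at 0.05, could test 344 of the 359 OR windows. It called 11 lower on day 8 (3.20%) where 3.09% of all windows tested were lower, and 2 higher (0.581%) where 1.45% of all were higher. The median log2 change was 0.16 over OR windows and 0.04 over all windows tested, and 60.5% of OR windows and 52.6% of all windows lay above 0. OR windows hold fewer positions than most windows and were not matched for this, so these values can compare unlike windows. Pooled over OR windows, the mean share was 0.361% on day 0 and 0.383% on day 8. These changes are relative to the library total, since day 8 libraries list several times more positions.

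The 11 windows that fell were among those with many positions on day 0, 13 to 34 over both libraries, where the median OR window had 6. Window chr7:86650001-86700000 (Olfr293 and Olfr292) held 23 and 8 positions on day 8, against 10 and 7 on day 0, and fell by 2.00 ± 0.491 on the log2 scale (SE, edgeR adjusted p = 0.00524). Window chr2:86050001-86100000 (Olfr1036 and Olfr1037) held 17 and 12, against 6 and 7 (-1.71 ± 0.533, edgeR adjusted p = 0.0392). Window chr10:79000001-79050000 (Olfr1351 and Olfr57) held 25 and 18, against 9 and 10 (-1.69 ± 0.426, edgeR adjusted p = 0.00690). As a share of the library, each of the 11 was lower in both day 8 libraries than in both day 0 libraries. They were called on these same libraries, so this is no separate evidence.

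The 2 windows that rose were empty on day 0. Window chr6:43150001-43200000 (Olfr237, Olfr437 and Olfr13) held 25 and 27 positions on day 8, against 0 in both day 0 libraries (edgeR adjusted p = 0.0169), and 7 and 5 on day 2. Window chr19:13700001-13750000 (Olfr1491 and Olfr1494) held 20 and 31 on day 8, against 0 in both day 0 libraries (edgeR adjusted p = 0.0190), and 11 and 9 on day 2. Set against a floor of 3 positions over both day 0 libraries, their share of positions on day 8 was higher at least 2.44-fold in the window on chromosome 6 and 2.39-fold in that on chromosome 19. On day 0, 37 and 27 OR windows had no position (10.3% and 7.52%), and in the other 9 knock-in libraries none was empty. Among other windows with a position in any knock-in library, 5.26% and 5.06% had none on day 0. Windows without a position in any knock-in library, of which OR windows had 0, are left out of those shares.

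The same test on reads gave another balance. It called 13 of 359 OR windows higher (3.62%) where 2.45% of all windows were higher, and 3 lower (0.836%) where 1.29% of all were lower, with a median log2 change of 0.29 over OR windows and 0.02 over all windows. Of the 13, 8 had no position in either day 0 library and 4 had 1 to 3 over both. The windows called lower by both measures were chr10:129350001-129400000 (Olfr782 and Olfr784), chr17:38050001-38100000 (Olfr129, Olfr130 and Olfr131) and chr7:108350001-108400000 (Olfr494 and Olfr495). The calls on reads were fragile: leaving out any library of day 2, 4 or 8 left 0, leaving out day 0 replicate 1 gave 97 (27.0%, against 28.8% of all windows), leaving out day 0 replicate 2 gave 122 (34.0%, against 29.5%), and DESeq2 gave 57 higher and 14 lower where 9.73% and 7.97% of all windows were called. The calls on positions numbered 1 of 358 without day 0 replicate 1 (0.279%, against 1.21% of all windows), 2 of 358 without day 0 replicate 2 (0.559%, against 0.879%) and 8 of 329 without day 8 replicate 1 (2.43%, against 3.36%). They numbered 3 with DESeq2, all lower, where DESeq2 called 0.113% of all windows higher and 1.43% lower.

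Calls were fewer over the shorter intervals. Between day 2 and day 0, positions gave 0 higher and 2 lower OR windows where 0.246% and 0.776% of all windows were called, and reads gave 10 higher and 1 lower where 1.58% and 0.534% were called. By reads these calls numbered 89 without day 0 replicate 1 (24.8%, against 26.8% of all windows), 122 without day 0 replicate 2 (34.0%, against 27.8%), and 0 without any other single library. DESeq2 called 49 OR windows higher and 13 lower by reads where 8.63% and 6.72% of all were called, and 0 by positions where 0.206% of all were lower. Between day 8 and day 2 the edgeR test called 0 OR windows by either measure, and DESeq2 called 0 as well, where it called 0% higher and 0.00217% lower of all windows by positions, and 0.0127% and 0.00211% by reads. At an unadjusted p under 0.05 the edgeR test passed 22 of 344 by positions (6.40%, against 7.30% of all windows) and 7 of 359 by reads (1.95%, against 1.53%). Over all windows that comparison called 9 higher (0.0196%) and 4 lower (0.00869%) by positions and 0 by reads. A difference between these intervals was not tested.

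Gene by gene, Olfr genes could barely be tested. Of the 896 in OR windows, 12 passed the filter on low counts with positions and 276 with reads, over the fit of all gene bodies. The edgeR test on positions called 0 of the 12 (1 at an unadjusted p under 0.05, 0 with DESeq2) where 2.23% of all genes were higher and 2.8% lower. The test on reads called 1 higher where 1.82% were higher and 0.717% lower. That gene was Olfr558, with 47 and 32 reads at 10 and 8 positions on day 8 and none on day 0 (edgeR adjusted p = 0.0460). It had 44 and 56 reads on day 2. The call of Olfr558 by reads was lost without any 1 library of day 2, 4 or 8, where calls over all genes were all but lost as well. Without a day 0 library more Olfr genes were called, but a far smaller share of them than of all genes.

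A list of 26 genes of OR choice and olfactory signalling held 1 gene that passed. By positions 22 of the 26 passed the filter on low counts. Of these, 0 were higher and 1 was lower on day 8, where 2.23% of all genes were higher and 2.8% lower. The median log2 change was -0.01 against 0.03 over all genes, and 11 of 22 lay above 0. The 1 that fell was Ebf3, a transcription factor of the family that binds OR enhancers and promoters. Its body (chr7:137193671-137322805) held 405 and 311 positions on day 8, against 72 and 99 on day 0, a log2 change of -0.83 ± 0.131 (SE, edgeR adjusted p = 1.15e-07), and by reads -0.81 ± 0.116 (edgeR adjusted p = 0.0207). Its relatives Ebf1 (-0.09 ± 0.119) and Ebf2 (-0.30 ± 0.132) did not pass by positions, nor did Lhx2 (0.59 ± 0.434). Without day 0 replicate 2 Ebf3 was not called by positions. By reads all 26 were tested and Ebf3 alone passed, where 1.82% of all genes were higher and 0.717% lower. The median was -0.27 against 0.18 over all genes. The Ebf3 call by reads was lost without any 1 library of day 2, 4 or 8, where calls over all genes were all but lost as well. Without a day 0 library more of the list was called, as were more of all genes. Kdm1a, the demethylase needed for OR choice, stood at 0.24 ± 0.361, Adcy3, the adenylyl cyclase of the odour response, at -0.10 ± 0.205, and Gnal, the olfactory G protein, at 0.18 ± 0.190 by positions. Omp, the marker protein of mature sensory neurons, had 14 and 11 positions on day 8 and none on day 0, which was not tested by positions and did not pass by reads (edgeR adjusted p = 0.0632).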

How the data were processed

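The authors deposited, for each of 16 libraries, a list of CpG positions with a count of reads, taken here as raw counts because all values are whole numbers of at least 1; molecules were not counted with identifiers. The submitters' processing notes name cutadapt 4.4, BWA 0.7.17-r1188, SAMtools 1.12 and the mm10 build; for their parameters nothing is given in the sources used here. Positions were summed, as distinct positions and as reads, in 50 kb windows, gene bodies and promoters placed with RefSeq GRCm38.p6. Of 30411 listed positions in RefSeq promoters, 30287 lay on the C of a CpG and the remaining 124 on the promoter's last base.

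Levels were compared with exact permutation tests over libraries. Days were compared with edgeR 4.0.16 (R 4.3.3; filterByExpr, TMM, quasi-likelihood test on the counts of all windows or genes of the 8 day libraries, Benjamini-Hochberg adjusted p under 0.05), with DESeq2 1.42.0 as an alternative. On simulated data, the window test of day 8 against day 0 over 46018 windows with positions recovered 41% of 2-fold and 100.0% of 4-fold changes, and over 47383 windows with reads 21% and 97%. The changes were rises on day 8, placed only in windows at or above the median count. In Het libraries 7.52% of OR windows lay above the median of the rest, so recovery in most OR windows can be lower and was not measured. The labels do not say that replicate numbers pair the samples, and deviations of same-numbered libraries correlated at -0.0156 to 0.0186. Counting noise can hide a shared batch in such deviations, so pairing is not excluded. The windows named are the 3 highest and 3 lowest in Het, the 3 largest changes each way past the threshold and those with most Olfr genes; genes named are well-known receptors and members of the signalling list that passed, and other genes and windows were named after their values were seen. The members and lists were chosen with earlier results of these data known. Sex chromosomes were left out.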

Additional observations from a re-analysis of the deposited data

How the results depend on the processing

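The lower density of OR windows than of the rest kept its direction and passed under 9 other settings (0.346 to 0.903) and without each library in turn (0.506 to 0.511), and likewise over deserts (1.10 to 1.74). Over vomeronasal windows the log2 ratio was -0.00852 (0.994-fold) per position listed in any knock-in library, 1.37 to 1.67-fold under the 7 other settings and 1.56 to 1.59 without each library. With the median of reads per position the log2 ratio was -0.0979 (exact permutation p = 0.0625). The trend of the OR share gave r = 0.688 at the smallest read total, 0.281 with 1 or more Olfr genes per window, 0.841 without day 0, 0.657 without day 8 and 0.675 to 0.893 without single libraries. The difference between day libraries and the wild-type control was -0.0151 points in reads and -0.00765 to 0.0938 without single libraries; the Het to WT difference was 0.127 to 0.153.

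Calls of OR windows on reads for day 8 against day 0 (16 in all) became 0 with the replicate number as a block, 71 with DESeq2, 0 with only the 4 libraries compared, 25 with windows starting 25 kb later and 0 to 122 without single libraries. For day 2 against day 0 (11 in all) they became 0 with the block, 62 with DESeq2, 0 with the 4 libraries and 0 to 122 without single libraries. Olfr genes by reads (1) gave 0 with the block, 22 with DESeq2 and 0 to 19 without single libraries, and the signalling list (1) gave 7 with DESeq2 and 0 to 11. On positions, day 8 against day 0 (13) gave 3 with DESeq2, 8 with the 4 libraries and 1 to 13 without single libraries. Day 2 against day 0 (2) gave 0 with DESeq2, 4 with shifted windows and 0 to 2 without single libraries, and the list gave 0 to 1. The block left the other counts as they were, 13 for the day 8 windows by positions. By reads DESeq2 called 3618 of all 30249 genes higher and 1676 lower, beside 19 higher and 3 lower of 276 Olfr genes. Shifted windows by reads, day 8 against day 0, gave 1227 higher and 711 lower of 47403, beside 21 and 4 of 369 OR windows. With the 4 libraries, positions gave 418 higher and 979 lower of 43167, beside 1 and 7 of 283. For day 2 against day 0, shifted windows by positions gave 111 and 422 of 46001, beside 1 and 3 of 349. Where a library was left out, the remaining library of its day was assumed to vary like the other groups. The cause of these changes was not tested. A density per CpG of the reference was not run, for want of the genome sequence. Day 0 depth, with a median of 6 positions per OR window over both libraries, limits every comparison with day 0, and wild-type shares rest on 2 to 25 positions.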
